A study of Homo sapiens with 15 samples.

Results

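The heat shock chaperones of the cytosol and the mitochondria were followed in A549 cells treated with interleukin 13 (IL-13). The set was defined from a list of 43 gene symbols that carries no threshold on a value, but the list was proposed with earlier results of these arrays known. Its calls are therefore a description and not independent support. Of the 43 members, 39 have a probe set that lists their symbol alone, and these 39 hold 64 such probe sets out of 22283 on the array. Testing covered 38 members among 6884 genes. CRYAB, a small heat shock protein, was too dim to be tested. HSPA8, the constitutive cytosolic HSP70, and TCP1, a subunit of the TRiC chaperonin, are measured only by probe sets that also list small nucleolar RNA genes, and no value is given for them. No probe set is listed for AHSA1 and HSF2.

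Chaperones hold unfolded proteins, and many but not all of them use ATP to refold these. HSP70 proteins bind exposed stretches of a client with the help of J-domain proteins, which bring the client and start the ATPase, and of nucleotide exchange factors, which let the client go. Some clients are passed through the adaptor STIP1 to HSP90, and others fold inside the barrel-shaped chaperonins, TRiC in the cytosol and HSPD1 with its lid HSPE1 in mitochondria. Heat and other protein-damaging stress raise many of these genes through the transcription factor HSF1, which binds repeated heat shock elements in their promoters. The list is wider than its name in 2 places: HSF1 and HSF2 are transcription factors, and SERPINH1 is a collagen chaperone of the endoplasmic reticulum.

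A549 is a lung adenocarcinoma epithelial line, given in the labels as bronchial, and IL-13 is a type 2 cytokine of allergic airway disease. The labels define 5 groups of 3 arrays each: untreated cells at 0 h and at 24 h, and cells given IL-13 for 4 h, 12 h and 24 h. No dose is given in the labels. The 5 groups hold no untreated cells at 4 h or 12 h, so at those times IL-13 and time in culture cannot be told apart. The labels do not say whether the arrays of a group, lettered a, b and c, came from separate cultures, so the p-values cover no more than array-to-array spread, some or all of which could be technical.

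The arrays of a group correlated at 0.970 to 0.983 over the tested genes. The median deposited signal of an array ran from 56.7 to 72.5 and was highest in untreated cells at 24 h (69.5 ± 3.10, SD, n = 3). For actin, the ratio of 3' to 5' control signal, which rises as RNA degrades, was 1.001 ± 0.065 at 0 h and 1.171 ± 0.066 in untreated cells at 24 h. With IL-13 it was 1.025 ± 0.078 at 4 h, 1.084 ± 0.049 at 12 h and 1.180 ± 0.081 at 24 h (SD, n = 3). The same ratio for GAPDH did not show this rise. It was 0.881 ± 0.023 at 0 h and 0.896 ± 0.021 in untreated cells at 24 h. Treated cells gave 0.887 ± 0.019 at 4 h, 0.874 ± 0.027 at 12 h and 0.869 ± 0.026 at 24 h (SD, n = 3). The part of either ratio in the results was not tested. Of the epithelial markers, KRT8, KRT18, KRT19 and CDH1 passed the filter on dim genes, and EPCAM and SFTPB did not. Of 4 leukocyte, 5 fibroblast and 5 endothelial markers measured, 1 each passed it (CD3E, COL1A1 and PECAM1). The summed fibroblast marker signal was 131 to 197 after 24 h of IL-13 and 231 to 303 over the other 4 groups, and its part in the results was not tested.

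As a group, the chaperones stood highest after 12 h of IL-13. The mean log2 signal over the 38 tested members was 9.54 ± 0.01 at 0 h, 9.63 ± 0.02 after 4 h, 9.72 ± 0.02 after 12 h and 9.48 ± 0.07 after 24 h of IL-13, and 9.45 ± 0.10 in untreated cells at 24 h (SD, n = 3). The 3 arrays at 12 h lay above every other array, and those at 4 h above every array of the 0 h and 24 h groups. Within both 24 h groups 1 array stood apart at 9.56, array b of the untreated and array c of the treated cells. The mean over all tested genes stayed between 7.90 and 7.91 in every group. Quantile normalization gave every array the same distribution of values, so this near-constant mean follows from the processing and is not a result. The group with the highest mean was IL-13 12 h for 20 of the 38 members (52.6%) and for 19.5% of all tested genes. The lowest was untreated 24 h for 18 members (47.4%, against 25.1% of all genes) and IL-13 24 h for 12 (31.6%, against 23.8%). In cells of 1 line, a lower share of expressing cells and less RNA per cell cannot be told apart on these arrays.

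**Figure D1:**
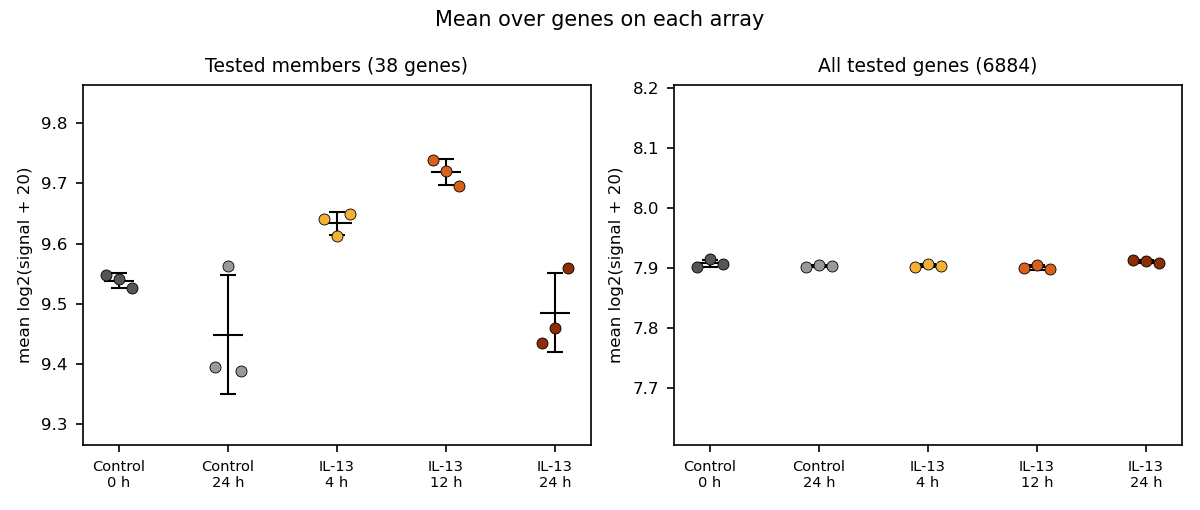
Mean log2(signal + 20) over the 38 tested members (left) and over all 6884 tested genes (right) on each of the 15 arrays. Points are arrays, and bars give the group mean ± SD of 3 arrays. Both vertical axes span the same range, and the members' mean is highest at 12 h of IL-13 (9.72). The mean of all genes is 7.90 to 7.91 throughout, which follows from quantile normalization.

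The comparisons below were fitted with limma across all 6884 genes, and a gene was called at an adjusted p under 0.05 (Benjamini-Hochberg over all tested genes). Differences are on the log2(signal + 20) scale ± SE with 3 arrays per group. After 4 h of IL-13, 2 of 38 members were called against 0 h, both higher, where 1.22% of all genes were called and 0.349% were called higher. After 12 h, 6 members were called, all higher (15.8% of members), where 4.14% of all genes were called and 1.55% were called higher. The median difference at 12 h was 0.13 over the members and 0.01 over all genes, and 29 of 38 members were above zero (76.3%, against 51.5% of all genes). No member was called between 4 h and 12 h, and no gene at all was (0%). At an unadjusted p under 0.05, 5 members were higher at 12 h than at 4 h (all genes, 4.79%).

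From 12 h to 24 h of IL-13 the pattern turned: 7 members were called, all lower (18.4% of members), where 6.2% of all genes were called and 2.06% were called lower. The median difference of this step was −0.13 over the members and −0.01 over all genes. In it 29 members were below zero and 9 above (23.7% above, against 49% of all genes). This comparison shares the 12 h arrays with that of 12 h and 0 h, and the comparisons with 0 h share the 0 h arrays. Against 0 h, 3 members were called after 24 h of IL-13, all lower (7.89% of members), where 6.87% of all genes were called and 3.47% were called lower. Against untreated cells of the same time, the only comparison matched in time, 1 member was called, lower (2.63% of members), where 7% of all genes were called and 3.07% were called lower. In untreated cells, no member was called between 0 h and 24 h, where 3.62% of all genes were. At an unadjusted p under 0.05, 6 members were lower in untreated cells at 24 h (all genes, 10.1%). The count of 0 calls moved with the scaling of the arrays: 11 members were called lower when each array was divided by its median, which moved the median of all genes by −0.18, and 4 when arrays were shifted to 1 median of tested genes.

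**Figure D2:**
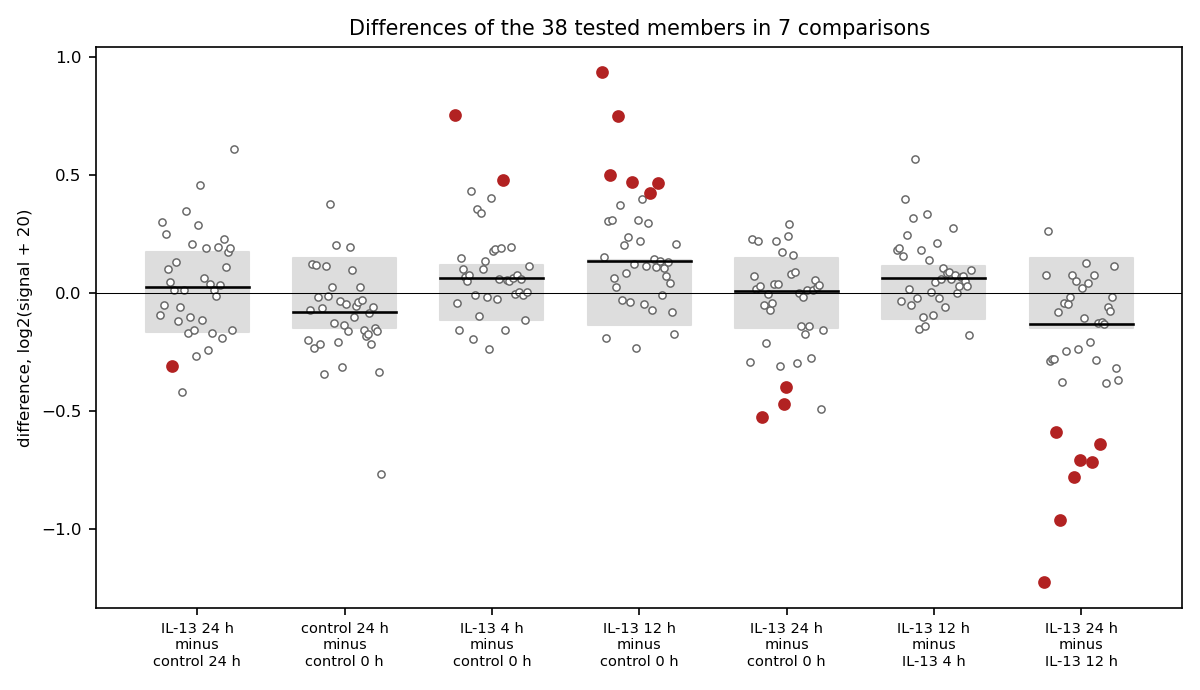
Differences in log2(signal + 20) of the 38 tested members in the 7 comparisons. Filled red points are members called at an adjusted p under 0.05, open points are the others, black bars are the members' medians, and grey boxes span the middle 50% of all 6884 tested genes. The called points lie above zero at 4 h and 12 h against 0 h, and below zero in the comparison of IL-13 24 h with 12 h.

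The members called in at least 1 comparison were HSPA2, HSPH1, STIP1, DNAJA1, BAG3, HSPE1, DNAJB1, HSP90AB1 and DNAJA3. The promoters of these 9 genes were searched for the core of the heat shock element, since several of them moved together at 12 h and 24 h. The core searched was GAANNTTC or TTCNNGAA, each its own reverse complement, so that both strands were covered. Adjacent cores that overlap form an element of 3 alternating units. In RefSeq windows of GRCh38.p14 from 250 bases before to 50 bases after a start, 13.5% of 35116 windows held a core and 0.49% held 3 units. By gene, 16.2% of 27305 genes had a window with a core and 0.608% one with 3 units. Windows were found for 36 members, of which 17 (47.2%) had a core and 8 (22.2%) had 3 units. Among the 9 called members 4 had a core and 2 had 3 units, and among 23 tested members that were not called 11 had a core and 5 had 3 units. The shares with a core were thus 44.4% and 47.8%. A match is a description of the letters and says nothing of binding.

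The stretches before the start are shown for the 3 called members with a core there, to let the spacing of the cores be seen. Cores are in capitals, and each line runs 5′ to 3′ on the gene's strand. For DNAJA1 the stretch lies at chr9:33025055-33025102 (plus strand), for HSP90AB1 at chr6:44247758-44247863 (plus strand) and for DNAJB1 at chr19:14518417-14518494 (minus strand).
DNAJA1: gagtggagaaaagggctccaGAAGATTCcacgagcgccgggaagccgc
HSP90AB1: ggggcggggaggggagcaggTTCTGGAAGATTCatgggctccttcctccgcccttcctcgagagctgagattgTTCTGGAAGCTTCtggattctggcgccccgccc
DNAJB1: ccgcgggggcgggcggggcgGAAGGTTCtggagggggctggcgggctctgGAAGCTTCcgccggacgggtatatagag
In HSP90AB1 the 4 cores form 2 runs of 3 units, whose first bases lie 165 and 112 bases before the start. In DNAJB1 the cores begin 77 and 47 bases before the start. The core of DNAJA1 begins 198 bases before the start, and its 3 units lie after the start. The core of STIP1 lies after the start as well, and the windows of HSPA2, HSPH1, BAG3, HSPE1 and DNAJA3 hold no core. For HSPE1 this depends on the edge of the window. A window of its neighbour HSPD1 (chr2:197499791-197500090) holds 3 cores, and it lies beside the HSPE1 window (chr2:197500129-197500428). Sequence outside the windows of a gene was not counted for it.

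HSPA2 had the largest differences of the set at 4 h and 12 h against 0 h and between 12 h and 24 h of IL-13. This HSP70 protein is best known from the testis. Its deposited signal was 485, 505 and 512 at 0 h, 787, 834 and 968 after 4 h of IL-13, and 1074, 956 and 869 after 12 h (arrays a, b and c of each group). After 24 h it was 375, 449.7 and 392 with IL-13 and 396, 569.5 and 328 without. All arrays at 4 h and 12 h were above all others, and the treated and untreated arrays at 24 h overlapped. HSPA2 was higher by 0.75 ± 0.15 at 4 h (1.69-fold, adjusted p = 0.0112) and by 0.94 ± 0.15 at 12 h (1.91-fold, adjusted p = 0.00100) than at 0 h. From 12 h to 24 h it fell by 1.23 ± 0.15 (2.34-fold, adjusted p = 5.92e-05). At 24 h the difference from untreated cells was −0.09 (95% interval −0.40 to 0.21).

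HSPH1, an HSP110 protein that acts as exchange factor for HSP70, was called at 12 h against 0 h, and in no other comparison on the probe set that stood for it. Its signal was 598, 589.9 and 676 at 0 h, 668, 683.5 and 623 after 4 h, 835, 909 and 854 after 12 h and 697, 672 and 821 after 24 h of IL-13, and 539, 728 and 666 in untreated cells at 24 h. The 12 h arrays were above all others. The difference from 0 h was 0.50 ± 0.11 (1.41-fold, adjusted p = 0.0104), and that from 12 h to 24 h was −0.28 ± 0.11 (adjusted p = 0.131). A second HSPH1 probe set gave 0.68 and −0.69 for these steps, both called when every probe set was tested on its own with limma (adjusted p = 0.00877 and 0.00655). The other 3 HSP70 members were not called in any comparison on the probe set that stood for them: HSPA4, an HSP110 relative, HSPA9, the mitochondrial HSP70, and HSPA14, a ribosome-associated form. HSPA9 differed by −0.19 at 12 h from 0 h and by 0.26 at 24 h from 12 h (adjusted p = 0.320 and 0.110). The HSPA9 probe sets disagreed: for the second step the other 2 gave 0.21 and −0.36, and at 24 h against untreated cells the 3 gave −0.05, 0.08 and −0.79, of which the last was called when every probe set was tested (limma adjusted p = 0.0416). HSPA14 differed by 0.30 and −0.29 (adjusted p = 0.234 and 0.217).

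**Figure D3:**
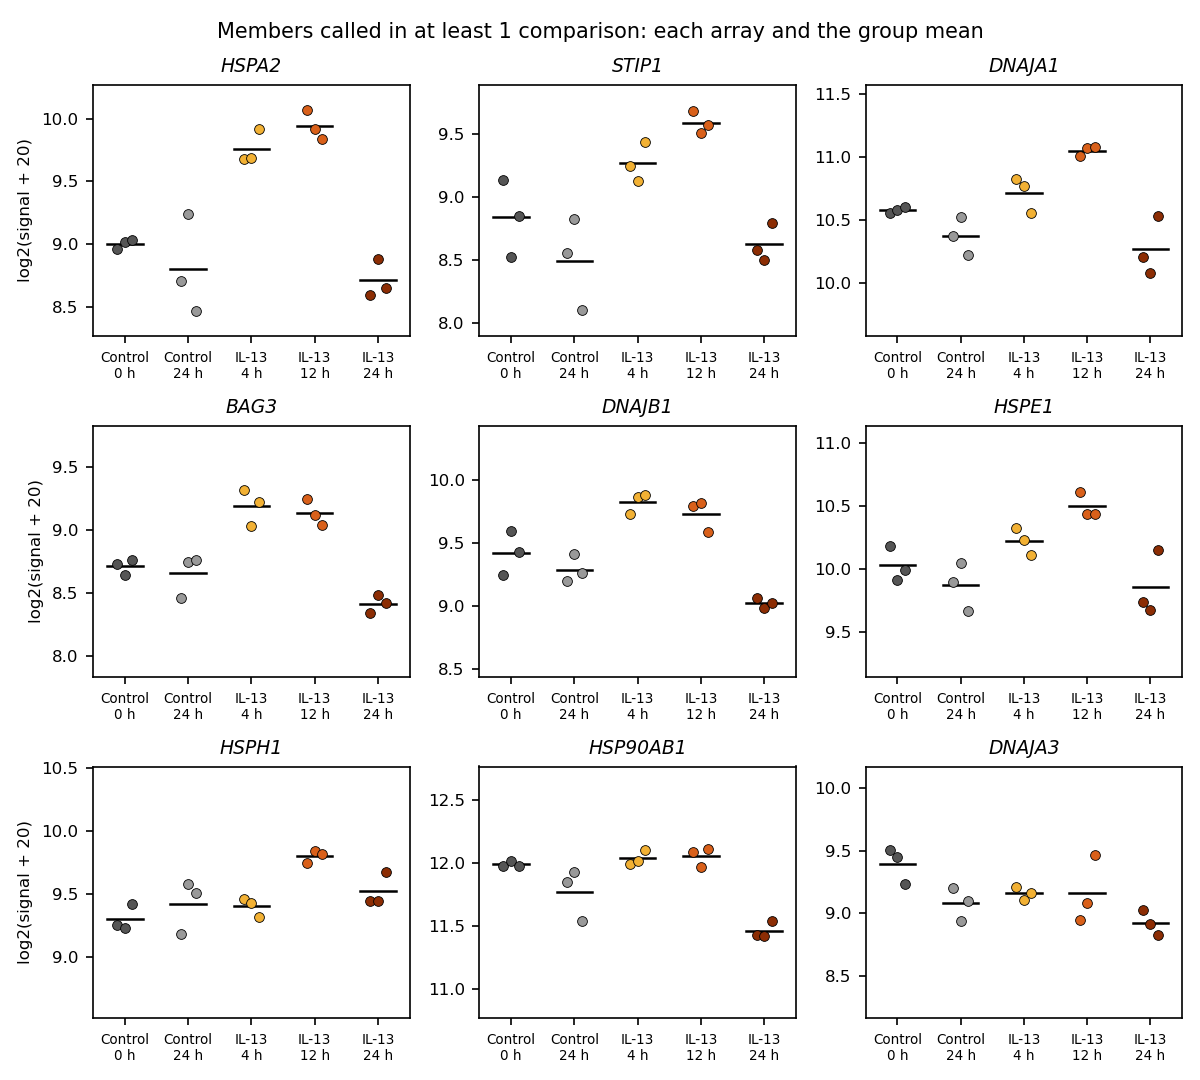
Log2(signal + 20) after quantile normalization of the 9 members called in at least 1 comparison. Points are the 3 arrays of a group and bars the group means; every panel spans 2 log2 units. HSPA2 is high at 4 h and 12 h of IL-13, HSPH1 at 12 h, and HSP90AB1 is low at 24 h of IL-13.

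The J-domain proteins load clients on HSP70. Of 7 tested, 1 was called higher at 12 h than at 0 h, and 2 were called lower at 24 h than at 12 h. DNAJA1, a main cytosolic partner of HSP70, gave signals of 1488.5, 1561 and 1507 at 0 h and 1773, 1816 and 1522.5 after 4 h of IL-13. After 12 h its signals were 2130.3, 2271 and 2124, and at 24 h they were 1197, 1055 and 1504 with IL-13 and 1177, 1387 and 1073 without. The 12 h arrays were above all others, and the groups at 24 h overlapped. DNAJA1 rose by 0.47 ± 0.11 to 12 h (1.39-fold, adjusted p = 0.0182) and fell by 0.78 ± 0.11 from 12 h to 24 h (1.72-fold, adjusted p = 0.000414). Its second probe set gave 0.64 to 12 h.

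DNAJB1 (HSP40), a J-domain protein induced by heat, had signals of 596, 788 and 681 at 0 h, 813, 958 and 942 after 4 h and 866, 895 and 732 after 12 h of IL-13. At 24 h they were 531, 484 and 517 with IL-13 and 545, 651 and 559 without. The 4 h arrays were above those at 0 h, the 12 h arrays overlapped them, and the treated 24 h arrays were below all others. The differences from 0 h at 4 h and 12 h, 0.40 ± 0.10 and 0.31 ± 0.10, were not called (adjusted p = 0.0651 and 0.106). DNAJB1 fell by 0.71 ± 0.10 from 12 h to 24 h (1.63-fold, adjusted p = 0.000469) and at 24 h was lower than at 0 h, by 0.40 ± 0.10 (1.32-fold, adjusted p = 0.0231). Against untreated cells at 24 h the difference was −0.27 ± 0.10 (adjusted p = 0.117). A second DNAJB1 probe set gave −0.53 from 12 h to 24 h, called when every probe set was tested (limma adjusted p = 0.0161). At 24 h of IL-13 it gave −0.36 against 0 h and −0.02 against untreated cells, neither called (limma adjusted p = 0.0855 and 0.955). On that probe set the treated and untreated 24 h arrays overlapped.

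DNAJA3 (Tid1), the J-domain partner of mitochondrial HSP70, took another course. Its signal was 721, 702 and 598 at 0 h, 565, 540.0 and 550.1 after 4 h, 469.7, 526 and 673 after 12 h and 517, 459 and 443 after 24 h of IL-13, and 546, 463 and 502 in untreated cells at 24 h. Both 24 h groups were below the 0 h arrays and overlapped each other. After 24 h of IL-13 it was lower than at 0 h by 0.47 ± 0.12 (1.39-fold, adjusted p = 0.0242), and in untreated cells the difference was −0.32 ± 0.12 (adjusted p = 0.157). DNAJA2, DNAJB4, DNAJB6 and DNAJC7 were not called anywhere, with differences from 0 h to 12 h of 0.12, 0.22, 0.40 and −0.05.

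Of the 4 BAG proteins, exchange factors that release clients from HSP70, BAG3 alone was called. BAG3 also steers clients to autophagy. Its signals were 408, 386 and 420.5 at 0 h, 610.3, 512 and 582 after 4 h and 591, 542 and 498 after 12 h of IL-13. At 24 h they were 314, 335 and 333 with IL-13 and 334, 408 and 404 without. The 4 h and 12 h arrays were above all others. BAG3 was higher than at 0 h by 0.48 ± 0.11 at 4 h (1.40-fold, adjusted p = 0.0282) and by 0.42 ± 0.11 at 12 h (1.34-fold, adjusted p = 0.0288), and fell by 0.72 ± 0.11 from 12 h to 24 h (1.65-fold, adjusted p = 0.000519). The differences of BAG1, BAG2 and BAG5 from 0 h to 12 h were 0.12, 0.30 and −0.07, and from 12 h to 24 h they were 0.04, −0.21 and 0.08.

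The HSP90 proteins differed among themselves. HSP90AB1, the constitutive cytosolic form, was lower after 24 h of IL-13 than in each of the 3 groups it was compared with. Its signals were 3833, 4377.5 and 3959.8 at 0 h, 4061, 4472 and 4657 after 4 h and 4604, 4152 and 4497 after 12 h of IL-13. At 24 h they were 2776, 2655 and 2866 with IL-13 and 3261, 3603 and 2836 without. The treated 24 h arrays were below those of 0 h, 4 h and 12 h, and array c of the untreated 24 h cells lay among them on the deposited scale. HSP90AB1 fell by 0.59 ± 0.08 from 12 h to 24 h (1.51-fold, adjusted p = 0.000451) and was lower than at 0 h by 0.53 ± 0.08 (1.44-fold, adjusted p = 0.00101). It differed from 0 h by 0.06 ± 0.08 at 12 h (adjusted p = 0.746). A second HSP90AB1 probe set gave −0.66 from 12 h to 24 h, called when every probe set was tested (limma adjusted p = 0.00236). At 24 h of IL-13 it gave −0.38 against 0 h and −0.26 against untreated cells, neither called (limma adjusted p = 0.0516 and 0.170).

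HSP90AB1 was also the 1 member called against untreated cells at 24 h, at −0.31 ± 0.08 (1.24-fold, adjusted p = 0.0334). This call was lost in 13 of 18 other settings, among them leaving out array a or b of the untreated group (−0.27 and −0.23, adjusted p = 0.118 and 0.109) or array a, b or c of the treated group (−0.29, −0.29 and −0.35, adjusted p = 0.0938, 0.0794 and 0.0578). With each array divided by its median in place of quantile normalization the difference was 0.01. That scaling moved the median of all genes by 0.17, and under it 9 members were called in this comparison, all higher. With the deposited scaling 2 members were called, both higher, and with arrays shifted to 1 median of tested genes 3 were, all higher. Without array b of the untreated group 3 members were called, HSP90AB1 not among them. The direction of the members' calls between treated and untreated cells at 24 h therefore differed with the scaling.

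HSP90AA1, the stress-inducible cytosolic HSP90, was not called in any comparison on the probe set that stood for it. Its signals were 4860.5, 4959 and 4209 at 0 h, 6171, 5505 and 6114.5 after 12 h and 4253, 4231 and 5116 after 24 h of IL-13. The 12 h arrays were above the others on the deposited scale but not after quantile normalization. There array b at 12 h (log2 12.36) lay below array a at 4 h (12.41) and array c at 24 h of IL-13 (12.42). The fit gave 0.31 ± 0.10 from 0 h to 12 h (adjusted p = 0.101) and −0.28 ± 0.10 from 12 h to 24 h (adjusted p = 0.110). Its other 3 probe sets gave −0.04, 0.22 and 0.32 for the first step, none called when every probe set was tested (limma adjusted p = 0.915, 0.378 and 0.134). For the second step they gave −0.21, −0.34 and −0.47, and the last was called lower when every probe set was tested (limma adjusted p = 0.0227). TRAP1, the mitochondrial HSP90, differed from 0 h by −0.06 to 0.08 over the 4 other groups.

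Of the 7 HSP90 co-chaperones tested, STIP1, the adaptor that joins HSP70 to HSP90, was called and the other 6 were not on the probe sets that stood for them. The signals of STIP1 were 544, 353 and 449 at 0 h, 581, 551 and 680.3 after 4 h and 797, 720.0 and 723 after 12 h of IL-13. At 24 h they were 370.5, 339 and 432 with IL-13 and 356, 432 and 256 without. The 12 h arrays were above all others, and those at 0 h and 24 h overlapped. STIP1 rose by 0.75 ± 0.16 from 0 h to 12 h (1.68-fold, adjusted p = 0.0128) and fell by 0.96 ± 0.16 from 12 h to 24 h (1.95-fold, adjusted p = 0.00185). At 4 h the difference was 0.43 ± 0.16 (adjusted p = 0.290). Its second probe set gave 0.65 and −0.50 for the steps to 12 h and to 24 h. When every probe set was tested, that rise was called and that fall was not (limma adjusted p = 0.0221 and 0.0655).

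Among the co-chaperones that were not called, PTGES3 (p23), which stabilises the closed HSP90 clamp, had the smallest range of group means in the set (0.07). CHORDC1 differed from 4 h to 12 h by 0.57 (adjusted p = 0.284). FKBP4, a peptidyl-prolyl isomerase of steroid receptor complexes, gave different values on its probe sets: from 0 h to 12 h 0.20 on the one that stood for it and 0.54 on the other, and from 12 h to 24 h −0.25 and −0.62. The second values of both steps were called when every probe set was tested (limma adjusted p = 0.0149 and 0.00487). ST13, CDC37, which brings kinases to HSP90, and STUB1, the ubiquitin ligase CHIP, differed by 0.09, 0.24 and −0.04 from 0 h to 12 h.

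In the mitochondrial chaperonin, the lid was called in these steps and the barrel depended on the probe set. HSPE1 (HSP10), the lid, had signals of 1126, 984 and 1016 at 0 h, 1241, 1228 and 1111 after 4 h, 1607, 1444 and 1365 after 12 h and 855, 792 and 1159 after 24 h of IL-13, and 875, 990.2 and 741 in untreated cells at 24 h. The 12 h arrays were above all others. HSPE1 rose by 0.47 ± 0.12 from 0 h to 12 h (1.38-fold, adjusted p = 0.0366) and fell by 0.64 ± 0.12 from 12 h to 24 h (1.56-fold, adjusted p = 0.00429). HSPD1 (HSP60), the barrel, whose gene neighbours HSPE1 and is read in the opposite direction, differed by 0.11 and −0.13 for these steps (adjusted p = 0.535 and 0.402). Its second probe set gave 0.22 and −0.32, and when every probe set was tested the fall from 12 h to 24 h was called (limma adjusted p = 0.200 and 0.0421). Whether the 2 genes differ from each other was not tested.

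None of the 7 tested subunits of TRiC, the chaperonin that folds actin and tubulin, was called in any comparison on the probe set that stood for it. From 0 h to 12 h of IL-13 the subunits differed by −0.08 to 0.14, with a median of 0.07. In untreated cells all 7 were below zero from 0 h to 24 h, by 0.06 to 0.22, where 49.5% of all genes were above zero. The smallest adjusted p was 0.154 (CCT5). Against those untreated cells, 6 of the 7 were above zero after 24 h of IL-13, where 50.3% of all genes were. The median of the 7 was 0.17 and the smallest adjusted p was 0.0980 (CCT5, 0.23). The second probe set of CCT6A gave 0.52 ± 0.13 there, against 0.11 on the first, and was called higher when every probe set was tested (limma adjusted p = 0.0217). These comparisons share the untreated 24 h arrays. CCT4 differed by −0.38 from 12 h to 24 h (adjusted p = 0.0590).

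HSPB1 (HSP27), the small heat shock protein tested, differed by 0.14 from 0 h to 12 h and by −0.29 from 12 h to 24 h (adjusted p = 0.560 and 0.158). HSF1 had signals of 148, 188 and 146 at 0 h and 117, 111 and 87.5 after 24 h of IL-13, which did not overlap. That difference, −0.49 ± 0.19, was not called (adjusted p = 0.138). Untreated cells at 24 h gave 140, 95.7 and 156, which overlapped both groups. They differed from 0 h by −0.34 (adjusted p = 0.352), and treated from untreated cells at 24 h by −0.16 (adjusted p = 0.652). HSF1 differed from 0 h by 0.00 at 4 h and −0.18 at 12 h. Its second probe set gave −0.50 after 24 h of IL-13 against 0 h, not called when every probe set was tested (limma adjusted p = 0.0580). SERPINH1 gave 145, 148 and 206 at 0 h, 82.0, 118 and 90.5 in untreated cells at 24 h and 199, 95.9 and 157 after 24 h of IL-13. Its difference of −0.77 ± 0.24 in untreated cells was the largest of the 38 tested members there and was not called (adjusted p = 0.0841), nor was that of 0.61 ± 0.24 between treated and untreated cells (adjusted p = 0.131).

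**Figure D4:**
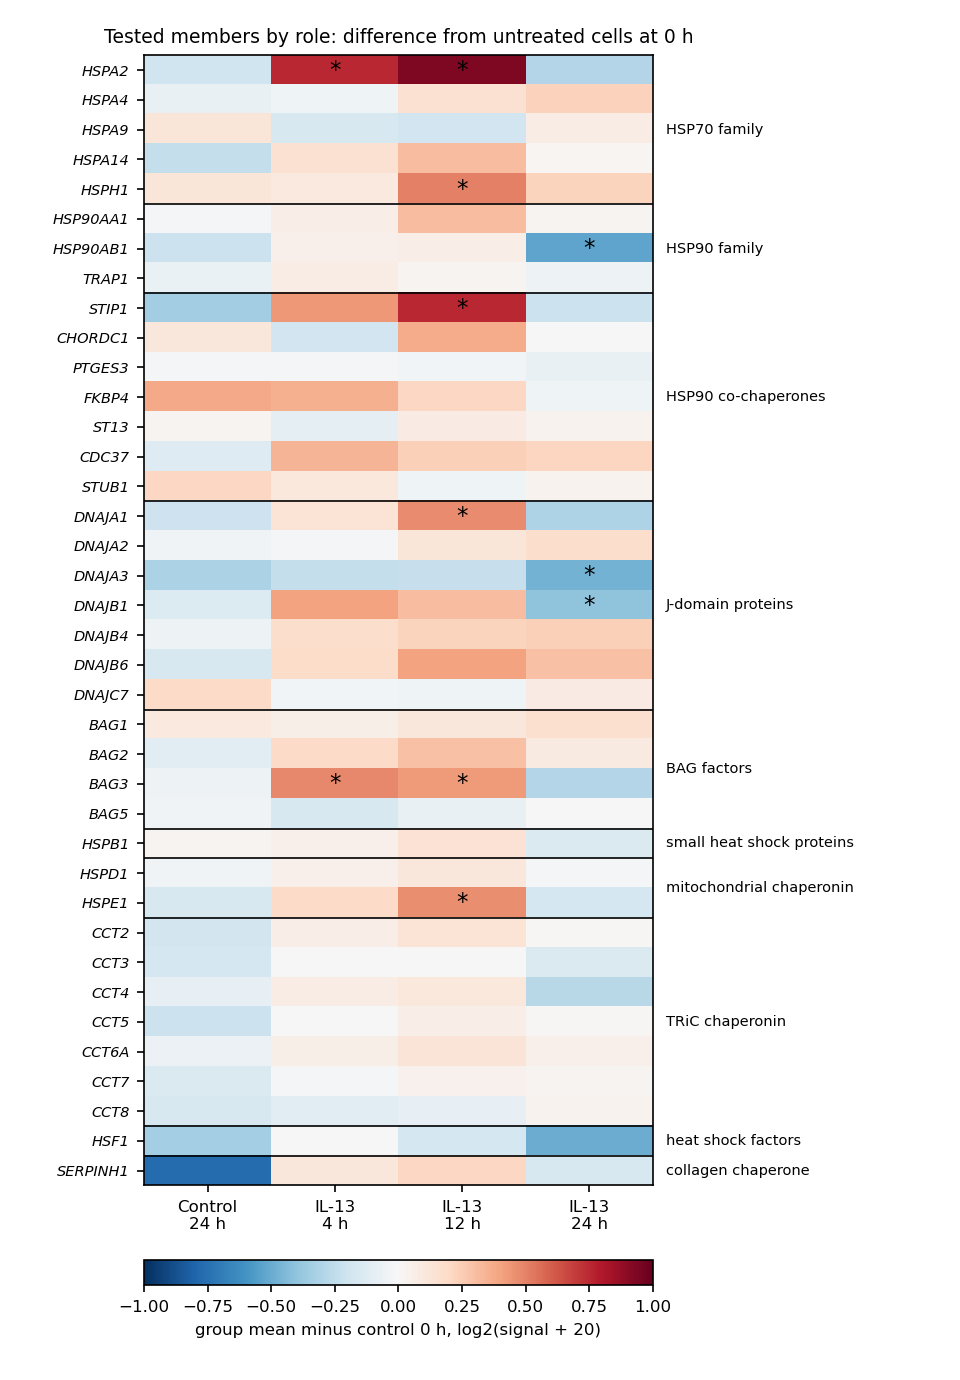
Group means of the 38 tested members minus untreated cells at 0 h, in log2(signal + 20), ordered by role. Red is higher and blue lower than at 0 h, and an asterisk marks an adjusted p under 0.05. The column of 12 h of IL-13 holds the 6 members called higher, and the TRiC rows, each on the probe set that stood for the gene, hold no asterisk.

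The calls differed in how far they rested on single arrays. All 7 calls from 12 h to 24 h, that of HSPA2 from 0 h to 12 h and that of HSP90AB1 from 0 h to 24 h of IL-13 held in each of 18 other settings, which include leaving out each array of the compared groups. Where every probe set was tested, only the one that stood for the gene was counted here. The second probe sets of STIP1 from 12 h to 24 h and of HSP90AB1 from 0 h to 24 h of IL-13 were not called. Without array b of the 0 h group, 1 member in place of 6 was called at 12 h, HSPA2. Without array c of that group, or array a or b at 12 h, 3 were. At 4 h no member was called without array a or b at 0 h or array c at 4 h, and 1 was without array c at 0 h or array a at 4 h. After 24 h of IL-13, 1 member in place of 3 was called against 0 h without array b at 0 h or array b at 24 h. Without array c at 24 h the calls of DNAJA3 and DNAJB1 were lost as well. Of the calls at 12 h against 0 h, that of HSPE1 was lost in 9 of the 18 settings, BAG3 in 7, DNAJA1 in 6, and HSPH1 and STIP1 in 2 each, with adjusted p-values of up to 0.177. Of the calls at 4 h, BAG3 was lost in 9 and HSPA2 in 3, and of those after 24 h against 0 h, DNAJB1 was lost in 6 and DNAJA3 in 4. In these cases the differences of the called members kept their direction.

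Of 45 further cytosolic or mitochondrial chaperones and co-chaperones listed, 27 were tested, and 2 were called at 24 h against untreated cells (all genes, 7%): HSPB8, a small heat shock protein that works with BAG3, higher by 0.73 ± 0.17 (1.66-fold, adjusted p = 0.0168), and HSPB6, lower by 0.53 ± 0.16 (adjusted p = 0.0473). HSPB8 gave 110.0, 98.3 and 121 with IL-13 and 80.1, 59.1 and 60.7 without. From 0 h to 12 h (all genes, 4.14%) 1 of the 27 was called, HSBP1, which binds HSF1 (0.42 ± 0.11, adjusted p = 0.0343). From 12 h to 24 h (all genes, 6.2%) the 1 called was DNAJC2, a ribosome-associated J-domain protein, and it was higher (0.38 ± 0.10, adjusted p = 0.0312). HSPBP1, an HSP70 exchange factor, was the 1 called at 24 h of IL-13 against 0 h (all genes, 6.87%), lower by 0.47 ± 0.13 (adjusted p = 0.0364).

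In the endoplasmic reticulum, 15 of 17 listed chaperones were tested. From 0 h to 12 h of IL-13 (all genes, 4.14%) 2 of the 15 were called: MANF (0.48 ± 0.10, adjusted p = 0.00989) and the disulfide isomerase PDIA4 (0.46 ± 0.12, adjusted p = 0.0398). MANF, which is secreted on stress of that compartment, fell by 0.39 ± 0.10 from 12 h to 24 h (adjusted p = 0.0259). HSPA13, an HSP70 relative of the microsomes, gave 90.9, 99.5 and 83.2 at 12 h and 182, 169 and 203 at 24 h of IL-13. It rose by 0.89 ± 0.17 (adjusted p = 0.00441), where 7 of the 38 cytosolic and mitochondrial members fell. Against 0 h (all genes, 6.87%) HSPA13 and PDIA4 were the 2 called at 24 h of IL-13, higher by 0.76 ± 0.17 and 0.42 ± 0.12 (adjusted p = 0.0118 and 0.0447). In untreated cells (all genes, 3.62%) 1 was called: CALR (calreticulin), a lectin chaperone, was lower at 24 h than at 0 h by 0.80 ± 0.21 (adjusted p = 0.0390). The probe set that stood for CALR was dim, at 138, 96.1 and 142 at 0 h and 76.3, 86.0 and 53.1 in untreated cells at 24 h. Its mean log2 signal in the latter was 6.38, near the filter of 6.33.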

How the data were processed

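The deposited values are linear signal intensity per probe set on 15 arrays, 3 in each of 5 groups. The authors' method of computing this intensity was not given in the sources used here. Trimming 2% at each end left an array mean of 150.0. Signals were log2 transformed after a pseudocount of 20 was added, and quantile normalized, so changes of dim genes are understated. The brightest probe set with a single symbol stood for its gene. Probe sets with names ending in _x_at were used only where the gene had no other. A gene was tested if its mean log2 signal exceeded 6.33, the median over non-control probe sets. limma 3.58.1 (R 4.3.3) fitted 1 mean per group to all 15 arrays, with 10 residual degrees of freedom, a trended prior variance, two-sided p-values and Benjamini-Hochberg adjustment over 6884 genes. The number of arrays limits the precision. The steps were tested on simulated data.

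The members and all lists were chosen with earlier results of these data known. Members called in any comparison were named with full values, the others by range, and called genes of the other lists, at most 4 per comparison. Promoter windows came from RefSeq (GRCh38.p14). The alternatives tried were 3 other scalings, a pseudocount of 1 or 62, filtering at the 75th percentile or not at all, averaging or separately testing a gene's probe sets, fitting the compared groups alone, an untrended prior, blocking on the replicate letter and omitting each array.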

Additional observations from a re-analysis of the deposited data

How the results depend on the processing

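The count of called members from 12 h to 24 h of IL-13 (7) was 11 with every probe set tested and 7 to 9 without single arrays. In the comparison of treated and untreated cells at 24 h (1 call) the count was 2 with the deposited scaling, 9 with median scaling, 3 with tested-gene median scaling and 3 with every probe set, and 0 with no filter, with only the compared groups, with no variance trend and with the replicate block. Without single arrays it ran from 0 to 3. The difference of HSP90AB1 was 0.0106 there with median scaling, which moved the median of all genes by 0.17. In untreated cells from 0 h to 24 h (0 calls) the count was 1 with the deposited scaling, 11 with median scaling, which moved the median of all genes by −0.18, 4 with tested-gene median scaling and 1 with only the compared groups, all lower under those scalings, and 0 without single arrays. From 0 h to 4 h (2 calls) it was 1 with median scaling, only the compared groups, no variance trend or the replicate block, and 0 to 2 without single arrays. From 0 h to 12 h (6 calls) it was 2 with median scaling, 4 with the replicate block and 1 to 4 without single arrays. From 0 h to 24 h of IL-13 (3 calls) it was 1 to 3 without single arrays. From 4 h to 12 h the count was 0 throughout. Apart from the scalings and from settings that leave out samples or change the genes tested, the cause was not tested. The replicate letters did not pair the arrays: deviations of same-letter arrays correlated at −0.22 to 0.11, 3 of 30 pairs were over 0.1, and 3 of 15 arrays correlated best with their own letter.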
